A study of Mus musculus with 4 samples.

Results

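Cell cycle genes are the genes whose transcripts mark cells that copy their DNA and divide. The set described here held 38 of them, chosen by symbol from a fixed list, and all 38 were found among the 31053 genes of the deposited tables. By role it comprised 13 genes of DNA replication and nucleotide supply, 7 cyclins and mitotic kinases, 4 genes of the spindle checkpoint and the anaphase-promoting complex, 5 of the kinetochore and centromere, 6 of the spindle and its microtubules, and 3 of the chromatin of dividing cells. A barcode (the tag of 1 droplet, taken as 1 cell) was called cycling when it held at least 2 transcripts of Mki67 and Top2a together. Transcripts are counted as UMIs, unique molecular identifiers, so that copies of 1 molecule count as 1.

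A cell that commits to division raises the helicase, clamp and nucleotide-synthesis genes of S phase, and later the cyclins, kinases and spindle genes of mitosis. Resting lymphocytes hold very little of either. In lymphoid tissue of the gut, B cells of germinal centres divide rapidly after contact with antigen, and activated T cells, young plasma cells and some myeloid cells can divide as well.

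The cells were CD45+ leukocytes (CD45 is the surface protein shared by white blood cells) sorted from total colon of C57BL/6 mice of wild-type genotype. The study compared 2 control libraries with 2 libraries from mice that had been restrained daily for 7 days, a model of psychological stress, and asked about its effect on leukocytes of the colon. All 4 libraries are single-cell 10x Genomics libraries, and the labels do not give the age or sex of the animals, nor whether the libraries of a group came from different animals or from pooled ones. The p-values therefore measure the spread between these libraries, which may be technical.

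After removal of barcodes with fewer than 500 UMIs or over 10% mitochondrial UMIs, 2562 and 5443 barcodes remained in control 1 and control 2, and 8333 and 4138 in stress 1 and stress 2. They held 12552824, 20162123, 33891484 and 36370030 UMIs, with medians of 2938, 2675, 2174 and 4547 per barcode. Stress 2 was thus the deepest library per cell and stress 1 the shallowest. Between 3 and 19 barcodes were shared by any pair of libraries. Control 1 stood apart in its content: 228 of its barcodes were fibroblast-like, against 5, 7 and 1 in the other libraries, and the haemoglobin genes Hbb-bs, Hbb-bt and Hba-a1 summed to 2018 CPM (UMI counts scaled to a common library total) there against 331 to 580 elsewhere. Cell types were assigned by marker genes, so that each type name below stands for barcodes that passed its marker gate and should be read as "-like". Cd79a was detected in 97.5% of germinal centre B barcodes and Mef2b, a transcription factor of these cells, in 77.6%. Both genes belong to the gates themselves, so these values describe the gates and do not test them. Ptprc, which encodes CD45 and set no gate, was detected in 92.0% of germinal centre B barcodes but in only 3.29% of fibroblast barcodes.

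In the sums over all kept cells, transcripts of the division genes were more abundant in both stress libraries than in both controls for most of the set, but no gene passed the adjusted threshold. Of the 38 members, 36 had a positive log2 change (stress over control), where 44.5% of the 13241 genes tested did. The median change of the members was 0.82 on the log2 scale, beside -0.04 for all genes tested. Both stress libraries lay above both controls for 34 members, where 19.7% of all genes did so, and in none of the 38 did both lie below (17.4% of all genes). The exceptions to the 34 were Pcna, Cenpa, Mcm4 and Mcm7. edgeR's quasi-likelihood test with Benjamini-Hochberg adjustment called 0.0% of genes in this comparison, members included (872 genes had an unadjusted p under 0.05, among them 23 members). DESeq2 called 132 genes, 0.997% of those tested, and among them were the members Mki67, Top2a, Cdk1, Nusap1 and Bub1b. The number of calls depended on single control libraries: without control 1 edgeR called 3017 genes, with 30 members among them, and without control 2 it called 2866, with 21 members. With fibroblast-like and epithelial-like barcodes left out, 36 members were positive and the median was 0.71. A sum over cells cannot tell more dividing cells from more RNA per dividing cell.

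The 3 chromatin genes were all higher in the stress libraries. Mki67, whose protein coats mitotic chromosomes, was at 48.0 and 34.3 CPM in control 1 and control 2 and at 111 and 98.3 CPM in stress 1 and stress 2. Top2a, the topoisomerase that untangles copied DNA, was at 43.6 and 37.0 CPM in the controls and at 89.5 and 77.8 CPM under stress. In both genes the groups did not overlap, and the log2 changes were 1.35 (SE 0.23) for Mki67 and 1.05 (SE 0.17) for Top2a. Hmgb2, a chromatin protein that many resting leukocytes also express, was at 312 and 289 CPM against 455 and 437 CPM, a log2 change of 0.57 (SE 0.15). edgeR's adjusted p was 0.733 for all 3.

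Among the 7 cyclins and mitotic kinases all changes were positive, with a median of 1.00. Cdk1, the kinase that drives entry into mitosis, was at 8.31 and 5.87 CPM in the controls and at 19.3 and 18.6 CPM in the stress libraries. Its log2 change of 1.42 (SE 0.23, edgeR adjusted p = 0.733) was the highest of the 38 members in this fit. Ccnb2, a cyclin that partners Cdk1, was at 11.0 and 7.55 CPM against 17.8 and 18.4 CPM, a log2 change of 0.97 (SE 0.24). Ccna2, Ccnb1, Plk1, Aurka and Aurkb had changes between 0.55 and 1.31.

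The 4 genes of the spindle checkpoint and the anaphase-promoting complex, which hold and then release the separation of chromosomes, had a median change of 1.02. Bub1b, a checkpoint kinase, was at 3.73 and 4.29 CPM in the controls and at 10.1 and 9.49 CPM under stress, a log2 change of 1.28 (SE 0.20). Ube2c, a ubiquitin-conjugating enzyme of the complex, was at 21.7 and 11.3 CPM against 27.3 and 39.9 CPM. Cdc20, its activator, was at 9.22 and 7.32 CPM against 15.9 and 17.5 CPM. The groups did not overlap in any of these 3, although the controls of Ube2c differed from each other by more than the lower stress library differed from control 1.

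Of the 5 kinetochore and centromere genes, 4 were higher in both stress libraries and Cenpa was not. Cenpa, the histone that marks centromeres, was at 71.1 and 131 CPM in the controls and at 94.3 and 68.1 CPM under stress, so the groups overlapped, with control 2 highest (log2 change -0.32, SE 0.37, and 0.23 without control 2). Birc5, a subunit of the chromosomal passenger complex, was at 20.4 and 11.6 CPM against 30.5 and 28.1 CPM. Cenpf, a kinetochore protein, was at 12.4 and 5.96 CPM against 18.6 and 23.6 CPM, a log2 change of 1.21 (SE 0.42).

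All 6 spindle genes were higher in both stress libraries, with a median change of 1.04. Hmmr, a spindle assembly protein, was at 6.94 and 3.03 CPM against 11.7 and 11.6 CPM, a log2 change of 1.23 (SE 0.45). Stmn1, which destabilises microtubules, was at 91.2 and 83.2 CPM against 119 and 101 CPM, and its change of 0.34 (SE 0.17) was smaller. Kif23, a motor of the cytokinetic midzone, was at 11.8 and 12.2 CPM against 15.4 and 15.3 CPM (log2 change 0.36).

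The 13 replication genes changed less: 12 were positive, 10 were higher in both stress libraries, and the median was 0.61. Pclaf, which binds the replication clamp, was at 52.2 and 37.0 CPM in the controls and at 89.3 and 68.1 CPM under stress (log2 change 0.82, SE 0.26). Pcna, the clamp itself, was at 56.3 and 79.3 CPM against 55.7 and 59.2 CPM (log2 change -0.24, SE 0.22, and 0.07 without control 2), and here stress 1 lay just below control 1 and stress 2 between the controls. The remaining 11, the helicase subunits Mcm2 to Mcm7 and Cdc45 and the nucleotide-supply enzymes Rrm1, Rrm2, Tyms and Tk1, had changes between 0.23 and 0.81. The plot of CPM by library shows each member.

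The promoters of the members were also read for shared sequence. RefSeq promoter windows (GRCm38.p6, 250 bases before the start of the gene) were found for 32 of the 38 members by symbol. The letters CCAAT, the box bound by the factor NF-Y, occurred on either strand in 28 of the 32 (87.5%), against 33.8% of all 32851 windows. TTTGAA, the CHR element of late cell cycle genes, occurred in 10 (31.2%), against 16.0% of all windows. TTGGCGC or TTCCCGC, both forms of the E2F site of replication genes, occurred in 7 (21.9%), against 5.62%. These are matches of letters, not measured binding. The members were chosen as cell cycle genes, so the counts describe the list and do not bear on the stress libraries. The windows of 5 members are given 5′ to 3′ on the strand of the gene: Mki67, Top2a and Cdk1 as members with large changes, Mcm6 as a replication gene with E2F letters, and Pcna as a member that did not follow the others. Capitals mark the matches, which on the other strand read ATTGG for CCAAT and TTCAAA for TTTGAA. Mki67, Top2a and Cdk1 each held CCAAT and TTTGAA, and Pcna held 1 CCAAT and no TTTGAA. Bub1b (log2 change 1.28), Hmmr (1.23) and Cenpf (1.21), which also had large changes, held no TTTGAA either.
Mki67 (GRCm38.p6, chr7:135716380-135716629, minus strand): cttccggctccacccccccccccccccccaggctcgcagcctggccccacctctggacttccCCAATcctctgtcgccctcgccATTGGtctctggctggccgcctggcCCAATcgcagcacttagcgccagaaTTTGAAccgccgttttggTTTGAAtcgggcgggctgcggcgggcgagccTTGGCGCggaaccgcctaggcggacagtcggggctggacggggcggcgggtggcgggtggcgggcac
Top2a (GRCm38.p6, chr11:99024190-99024439, minus strand): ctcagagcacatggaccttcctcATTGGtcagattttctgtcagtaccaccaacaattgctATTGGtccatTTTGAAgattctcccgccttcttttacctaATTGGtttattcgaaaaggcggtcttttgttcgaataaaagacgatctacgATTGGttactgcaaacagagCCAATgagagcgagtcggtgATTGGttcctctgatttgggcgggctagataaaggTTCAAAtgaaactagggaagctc
Cdk1 (GRCm38.p6, chr10:69352913-69353162, minus strand): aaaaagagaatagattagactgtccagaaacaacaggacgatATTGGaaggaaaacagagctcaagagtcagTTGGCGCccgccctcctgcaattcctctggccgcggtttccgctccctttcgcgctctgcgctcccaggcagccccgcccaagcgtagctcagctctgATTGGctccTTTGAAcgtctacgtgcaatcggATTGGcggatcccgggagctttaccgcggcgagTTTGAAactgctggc
Mcm6 (GRCm38.p6, chr1:128359706-128359955, minus strand): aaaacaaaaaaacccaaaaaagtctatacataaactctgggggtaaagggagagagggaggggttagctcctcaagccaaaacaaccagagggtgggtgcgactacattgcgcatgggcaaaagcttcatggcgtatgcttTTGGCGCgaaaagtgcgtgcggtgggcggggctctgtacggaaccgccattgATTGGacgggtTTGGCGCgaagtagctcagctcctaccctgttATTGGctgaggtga
Pcna (GRCm38.p6, chr2:132253181-132253430, minus strand): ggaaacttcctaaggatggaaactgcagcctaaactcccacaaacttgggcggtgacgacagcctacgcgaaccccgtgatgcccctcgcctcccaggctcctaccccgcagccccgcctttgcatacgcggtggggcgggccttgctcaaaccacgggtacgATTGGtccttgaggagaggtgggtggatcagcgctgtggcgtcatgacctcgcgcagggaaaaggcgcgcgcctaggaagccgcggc

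The other genes of the cell cycle were read from lists of 127 genes, of which 126 were in the tables. In all kept cells, 39 of 42 other S phase genes and 56 of 61 tested G2 and M phase genes had a positive change, and 34 and 53 were higher in both stress libraries, with medians of 0.49 and 0.83. Uhrf1, which couples DNA methylation to replication, had a log2 change of 0.95 (SE 0.17), Hells, a chromatin remodeller, 0.66 (SE 0.15), the mitotic kinase Nek2 1.39 (SE 0.26) and the phosphatase Cdc25c, which activates Cdk1, 2.12 (SE 0.40). In these sums, which include the fibroblast-like barcodes of control 1, most genes that act before S phase did not follow them. Of 6 G1 cyclins and their kinases 2 were positive, with Ccnd1 at -0.71 (SE 0.44) and Cdk2 at -0.21 (SE 0.29), and of 7 inhibitors of these kinases 2 were positive, with Cdkn1c at -1.72 (SE 0.41) and Cdkn2a at 1.01 (SE 0.50). Of 10 transcription factors of the cycle 6 were positive, with Mybl2 at 1.14 (SE 0.36) and Foxm1 at 0.90 (SE 0.31). None of these genes passed edgeR's adjusted threshold in the sums over all cells.

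How far a member sat in the barcodes called cycling differed between members, and Pclaf and Cdk1 had a large part of their UMIs in germinal centre B cells. Hmmr was nearly confined to the cycling barcodes, with 98.9%, 98.5%, 97.4% and 98.9% of its UMIs there in control 1, control 2, stress 1 and stress 2, although Hmmr played no part in the call. Pclaf had 87.7% to 95.6% of its UMIs in cycling barcodes, and 57.5%, 73.3%, 69.4% and 63.8% in germinal centre B cells. Cdk1 had 41.3%, 50%, 58.9% and 46.4% of its UMIs in germinal centre B cells. Pcna and Cenpa, both lacking the group difference, were spread over cells that were not called: cycling barcodes held 17.9% to 44.5% of the Pcna UMIs and 7.20% to 36.0% of the Cenpa UMIs. When germinal centre B barcodes were left out of the sums over all cells, 33 of 38 members were still positive, the median was 0.60 in place of 0.82, and Mcm4 (-0.01), Mcm7 (-0.08) and Stmn1 (-0.13) turned negative.

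The share of cycling barcodes was higher in both stress libraries. It was 4.18% (107 of 2562 barcodes, 95% Clopper-Pearson interval 3.44 to 5.02) in control 1, 2.41% (131 of 5443, 2.02 to 2.85) in control 2, 6.54% (545 of 8333, 6.02 to 7.09) in stress 1 and 10.3% (427 of 4138, 9.41 to 11.3) in stress 2. All 4 intervals were separate, so the libraries of a group differed from each other by more than counting error, which is all that these intervals cover. The means were 3.29% ± 1.25 (SD, n = 2) and 8.43% ± 2.67 (SD, n = 2), a difference of 5.14 percentage points (5.0 with fibroblast-like and epithelial-like barcodes left out). With 2 libraries against 2, the exact permutation test (two-sided) gave p = 0.333, the smallest it can give.

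Depth per cell differed between the libraries without following this share over all 4 of them: stress 2 was the deepest library and had the highest share, while stress 1 was the shallowest and had the next highest. With every cell thinned to 1000 UMIs, which left out 160, 278, 805 and 177 shallower barcodes in control 1, control 2, stress 1 and stress 2, the shares were 0.999% and 0.542% in the controls and 2.35% and 2.55% under stress. The groups again did not overlap, and the stress libraries were now close to each other. With 2000 UMIs the shares were 2.26%, 1.11%, 5.92% and 3.75%, and stress 1 was then above stress 2. A call that used none of the genes of the main call, at least 5 UMIs over 21 other mitotic members, gave 3.28%, 2.11%, 4.36% and 6.11%, in the same order as the unthinned shares.

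As a background, the call was read in cells that should not divide. Fibroblast-like barcodes in control 1 held 0 of 228 calls, which allows a share of up to 1.32%, at a median of 4853 UMIs. Resting follicular B cells (called from a marker list that includes Fcer2a, Ighd and Cr2) were called in 0.310%, 0.377%, 0.862% and 1.15% of barcodes at median depths of 2086.5, 2344, 1600 and 3237 UMIs. Neutrophil-like barcodes, which are end cells, were called in 3 of 36 in stress 2, and numbered 1, 8 and 23 in the other libraries with no call. A share of about 1% in the stress libraries is thus within the level of resting follicular B cells at these depths. Naive T cells, given below, were called more often than these B cells in every library, so the background may differ between types. Plasma cells were deeper than the fibroblast-like and follicular barcodes, so this level does not carry over to them.

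Germinal centre B cells (B cells with at least 2 genes of a list of 9 that includes S1pr2, Mef2b, Rgs13, Gcsam, Nuggc, Bcl6, Fas and Mybl1) contributed 35.0% of the stress difference in cycling barcodes, the largest part of any type as measured, though not without stress 1, when plasma cells contributed more. They made up 2.54% and 1.51% of kept barcodes in control 1 and control 2 and 5.18% and 5.65% in stress 1 and stress 2. As a share of B cells they were 7.07% and 2.80% against 10.6% and 12.6%. Both stress libraries were above both controls on either denominator (exact permutation p = 0.333, the smallest possible), and also after thinning B cells to 1000 UMIs before the gate, which gave 3.48% and 0.971% against 5.80% and 6.46%. Control 1 held more of them than control 2, and as a share of B cells it lay nearer to stress 1 than to control 2.

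Within germinal centre B cells the share that was cycling did not separate the groups as measured. It was 52.3% (34 of 65, interval 39.5 to 64.9) and 59.8% (49 of 82, 48.3 to 70.4) in the controls and 54.6% (236 of 432, 49.8 to 59.4) and 53.0% (124 of 234, 46.4 to 59.5) under stress. The 4 intervals overlapped, and the difference of the means was -2.22 percentage points (exact permutation p = 1). Thinned to 1000 UMIs the shares were 18.5%, 15.4%, 27.7% and 22.7%, with both stress libraries higher, so the sign of this difference depended on depth. Of the called barcodes 82.4%, 75.5%, 78.4% and 71.8% also held at least 5 UMIs of the 21 other mitotic members. By those other members alone the share called was lower in both stress libraries than in both controls, opposite to the thinned shares.

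**Figure D1:**
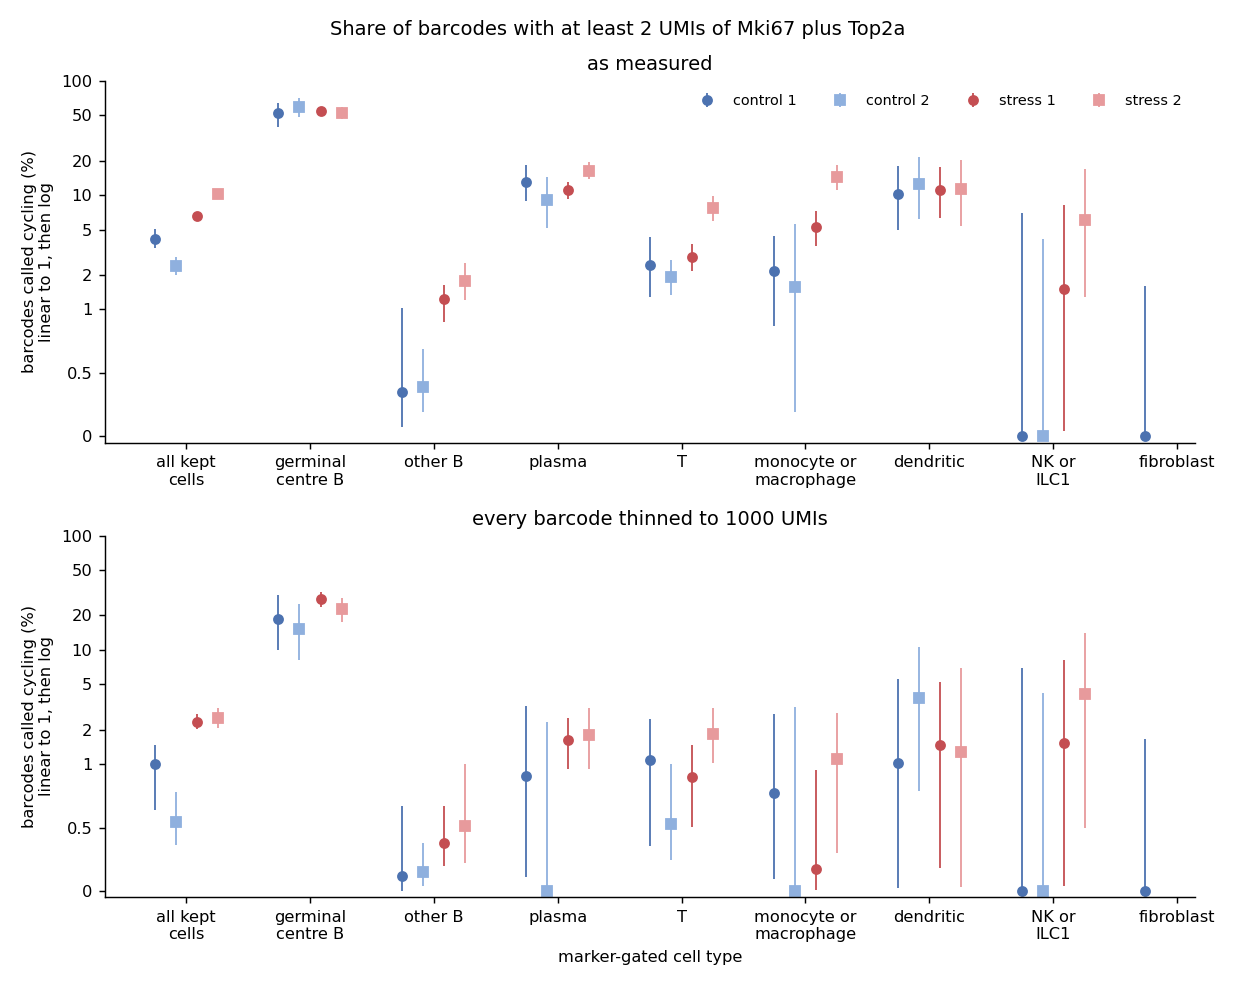
Percent of barcodes called cycling (at least 2 UMIs of Mki67 plus Top2a) per cell type and library, as measured and with every cell thinned to 1000 UMIs; points are libraries with at least 30 barcodes of the type, bars are 95% Clopper-Pearson intervals, and the axis is linear up to 1 and logarithmic above. Germinal centre B cells lie above 50% in all 4 libraries as measured, and monocytes or macrophages range from 1.59% to 14.5% as measured but from 0% to 1.10% after thinning.

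The levels of the members within germinal centre B cells were also close between groups. Of 38 members 18 were positive, where 50.5% of the 8263 genes tested were, and the median log2 change was -0.03. Both stress libraries were higher for 6 members (17.8% of all genes) and lower for 7 (16.6%). Neither edgeR's quasi-likelihood test (0.0484% of genes called) nor DESeq2 called a member. An unadjusted p under 0.05 by edgeR was found for 5 of the 38 members and for 349 of the 8263 genes. Mki67 was at 471 and 622 CPM in the controls and at 769 and 628 CPM under stress (log2 change 0.35, SE 0.18). Top2a was at 537 and 579 CPM against 598 and 494 CPM (log2 change -0.03, SE 0.17). For Mki67 the groups just failed to overlap, and for Top2a the stress libraries lay on either side of the controls.

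The largest changes within germinal centre B cells were in mitotic genes. Ccnb1, the cyclin of mitotic entry, was at 63.4 and 43.9 CPM against 78.2 and 90.5 CPM (log2 change 0.70, SE 0.23, edgeR adjusted p = 1.00). Cenpf was at 170 and 81.0 CPM against 160 and 214 CPM (0.65), and Cdc20 at 129 and 71.4 CPM against 119 and 149 CPM (0.48). In both, control 1 overlapped the stress libraries and control 2 was low. Of the 13 replication genes only 2 were positive, with a median of -0.30, and for 6 of them both stress libraries were below both controls. Of the 42 other S phase genes 8 were positive, and of 61 G2 and M phase genes 37.

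In all B cells, germinal centre cells included, 6 members rose and none fell, all of them genes of mitosis or chromatin. edgeR's quasi-likelihood test called 113 of 10432 genes there (1.08%, and 0.604% higher under stress). Mki67 was at 94.1 and 61.9 CPM in the controls and at 231 and 181 CPM under stress (log2 change 1.43, SE 0.21, edgeR adjusted p = 0.00675). Ccnb1 was at 13.1 and 5.51 CPM against 25.3 and 28.4 CPM (1.76, SE 0.30, edgeR adjusted p = 0.0213). Cdk1 was at 20.3 and 9.18 CPM against 41.8 and 37.1 CPM (1.59, SE 0.30, edgeR adjusted p = 0.0334). In each the stress libraries were above both controls, and control 2 was the lowest library. Sums over all B cells cannot tell a change within cells from the larger share of germinal centre B cells in the stress libraries.

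Bub1b, Kif11, the motor that pushes spindle poles apart, and Nusap1, which bundles spindle microtubules, were the other members that rose in B cells. Bub1b was at 10.1 and 5.64 CPM against 22.4 and 17.6 CPM (log2 change 1.51, SE 0.27, edgeR adjusted p = 0.0141). Kif11 was at 20.3 and 10.8 CPM against 34.0 and 29.1 CPM (1.16, SE 0.25, edgeR adjusted p = 0.0407), and Nusap1 at 25.7 and 14.4 CPM against 41.8 and 35.7 CPM (1.05, SE 0.24, edgeR adjusted p = 0.0477). Top2a, at 112 and 65.6 CPM against 189 and 155 CPM, had a change of 0.99 (SE 0.23, edgeR adjusted p = 0.0633), and Cenpf, with a larger change of 1.61 (SE 0.84), an adjusted p of 0.581 by edgeR. Of the 38 members 37 were positive, with a median of 0.85, and 32 were higher in both stress libraries (22.3% of all genes). The cycling share of B cells was 4.03% and 2.05% in the controls and 6.89% and 8.23% under stress. Leaving out single libraries changed the number of members called from 6 to 35 without control 1, 3 without control 2, 7 without stress 1 and 15 without stress 2. With all genes of at least 1 UMI tested it was 25.

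Of the other cell cycle genes in B cells, 4 of 42 S phase genes and 10 of 61 G2 and M phase genes rose and none of either list fell. Mcm10, which helps to start replication, rose by 2.08 (SE 0.35, edgeR adjusted p = 0.0105) and Hells by 1.04 (SE 0.19, edgeR adjusted p = 0.0141) on the log2 scale. Espl1, the protease that releases sister chromatids, rose by 3.01 (SE 0.53, edgeR adjusted p = 0.0129), from 1.69 and 0.393 CPM to 6.45 and 5.39 CPM, and Nek2 by 1.46 (SE 0.27, edgeR adjusted p = 0.0142). Mybl2, a transcription factor of S phase and mitosis, was the only one of 10 factors called and rose by 1.34 (SE 0.27, edgeR adjusted p = 0.0246). Of 5 tested inhibitors Cdkn1a, the p21 protein that halts the cycle, fell by 1.04 (SE 0.23, edgeR adjusted p = 0.0370), from 21.1 and 23.6 CPM to 13.4 and 8.50 CPM. DESeq2 called only 2 of the 16 other cell cycle genes that edgeR called in B cells, and gave 3 of them no adjusted p. Nek2, Mybl2 and Cdkn1a were among those that DESeq2 did not call. Of the 16 other cell cycle genes called in B cells, 2 were still called without control 2, Hells and Mybl2, and 8 and 9 without stress 1 and without stress 2.

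B cells outside the germinal centre gate cycled rarely. Their share was 0.351% (3 of 854) and 0.386% (11 of 2851) in the controls and 1.23% (45 of 3647) and 1.78% (29 of 1625) under stress. Both stress libraries were higher (exact permutation p = 0.333, the smallest possible), and remained so after thinning to 1000 UMIs, at 0.121%, 0.148%, 0.382% and 0.510%. As measured, the shares were above those of resting follicular B cells, which are themselves part of this group, in each library. Part of the called barcodes lay next to the germinal centre gate: among B cells with none of its 9 genes 0 of 784, 9 of 2641, 25 of 3311 and 19 of 1390 barcodes were called. Of the called barcodes 2 of 3, 2 of 11, 22 of 45 and 10 of 29 held at least 5 UMIs of the other mitotic members.

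In the sums over these other B cells, Plk1 and Bub1 were filtered out for low counts, and 7 of the 36 members tested rose (0.945% of 9951 genes were called, 0.482% higher). Top2a rose from 14.5 and 11.0 CPM to 32.1 and 28.3 CPM (log2 change 1.32, SE 0.22, edgeR adjusted p = 0.000695). Cdk1 rose from 1.56 and 0.703 CPM to 5.30 and 4.98 CPM (2.48, SE 0.53, edgeR adjusted p = 0.0148), and Kif11 from 1.56 and 0.281 CPM to 3.72 and 4.64 CPM (2.81, SE 0.64, edgeR adjusted p = 0.0232). The groups did not overlap in any of the 3, but the control sums of Kif11 were 3 and 2 UMIs, and those of Cdk1 3 and 5.

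Ube2c (log2 change 1.80, edgeR adjusted p = 0.0202), Birc5 (2.06, 0.0329), Cenpe, a kinetochore motor (1.51, 0.0357), and Cenpf (2.07, 0.0357) were the other members that rose in these cells. Mki67 had a change of 2.25 (SE 0.49, edgeR adjusted p = 0.109), and Hmmr 2.50 (SE 1.28, edgeR adjusted p = 0.646), with 0 UMIs in control 2. Of the 36 members 32 were positive, and Cenpa, at -0.51, was among those that were not. The filter on low counts keeps a gene that is high in either group, so the count of positive members among those tested is not evidence of its own. With a gate that took 1 germinal centre gene in place of 2, which moves more cells out of this group, 58 genes were called in place of 94, and 4 members, Ccnb2, Ube2c, Birc5 and Cenpe. Without control 2 only 5 genes and no member were called. DESeq2 called 2 members in these cells, Mki67 and Top2a.

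Plasma cells, the antibody-secreting descendants of B cells, gave the next largest part of the difference. Their share of kept barcodes was 8.67% and 3.03% in the controls and 13.3% and 17.6% under stress, and that of the cycling call within them 13.1%, 9.09%, 11.1% and 16.5%. As measured, the groups overlapped in the cycling share, with stress 1 between the controls. Plasma cells were also the deepest type, with medians of 17762.5, 18201, 12579 and 22934 UMIs. Thinned to 1000 UMIs their shares were 0.909%, 0%, 1.62% and 1.81%, with both stress libraries higher. Of the called plasma cells 9 of 29, 3 of 15, 40 of 123 and 38 of 120 held at least 5 UMIs of the other mitotic members, fewer than among called germinal centre B cells. By those other members alone the share called was also higher in both stress libraries, with stress 1 near control 1.

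No member was called in plasma cells by edgeR or DESeq2 (0.375% of 9866 genes called, 0.0507% higher under stress). An unadjusted p under 0.05 by edgeR was found for 7 members and for 1007 of all genes tested. Still, 31 of 38 members were positive, with a median of 0.41. For 14 members both stress libraries lay above both controls, 9 of them among the 13 replication genes, where 21.4% of all genes did so. For Mki67 and Top2a control 2 alone stood low. Mki67 was at 57.5 and 19.2 CPM in control 1 and control 2 and at 54.1 and 51.2 CPM in stress 1 and stress 2, and Top2a at 35.9, 7.36, 35.9 and 31.9 CPM. The largest changes were those of Aurkb, the kinase of the chromosomal passenger complex (0.98, SE 0.63), Pclaf (0.96, SE 0.58), at 18.0 and 4.80 CPM against 24.6 and 20.9 CPM, and Mcm7 (0.90, SE 0.24, edgeR adjusted p = 0.225), at 7.57 and 4.48 CPM against 11.6 and 11.1 CPM. Without control 2 the changes of Mki67 and Top2a were -0.12 and -0.08, and 18 of 38 members were positive.

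In T cells the cycling share was high in stress 2 alone. It was 2.47% and 1.94% in the controls, 2.89% in stress 1 and 7.76% in stress 2, and after thinning to 1000 UMIs 1.08%, 0.529%, 0.901% and 1.85%, with stress 1 below control 1. As measured the same held in 3 subsets: CD4 T cells were at 4.17%, 2.79%, 4.39% and 10.3%, CD8 T cells at 2.33%, 1.79%, 2.97% and 8.43%, and naive T cells at 1.89%, 1.34%, 1.78% and 6.12%. It did not hold in the T cells with Trdc, a gene of the gamma delta receptor, which were called in 3.03%, 4.13%, 3.17% and 3.85% of barcodes.

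Of the 38 members 35 were positive in T cells, with a median of 0.60, and none was called (0.0% of 10106 genes called by edgeR's quasi-likelihood test, 721 genes with an unadjusted p under 0.05, 15 genes but no member called by DESeq2). Mki67 was at 44.2 and 21.9 CPM in the controls and at 46.3 and 80.5 CPM under stress (log2 change 1.03, SE 0.41). Tpx2, a spindle assembly factor, was at 5.20 and 4.04 CPM against 8.06 and 15.4 CPM (1.41, SE 0.43). For 15 members both stress libraries lay above both controls (19.1% of all genes), 8 of them replication genes, and for 3 below (18.4%). Plk1, a mitotic kinase, had a change of 1.37 (SE 0.62) and Hmmr of 1.27 (SE 0.66). Without stress 2, 23 of 38 members were positive, with a median of 0.23.

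**Figure D2:**
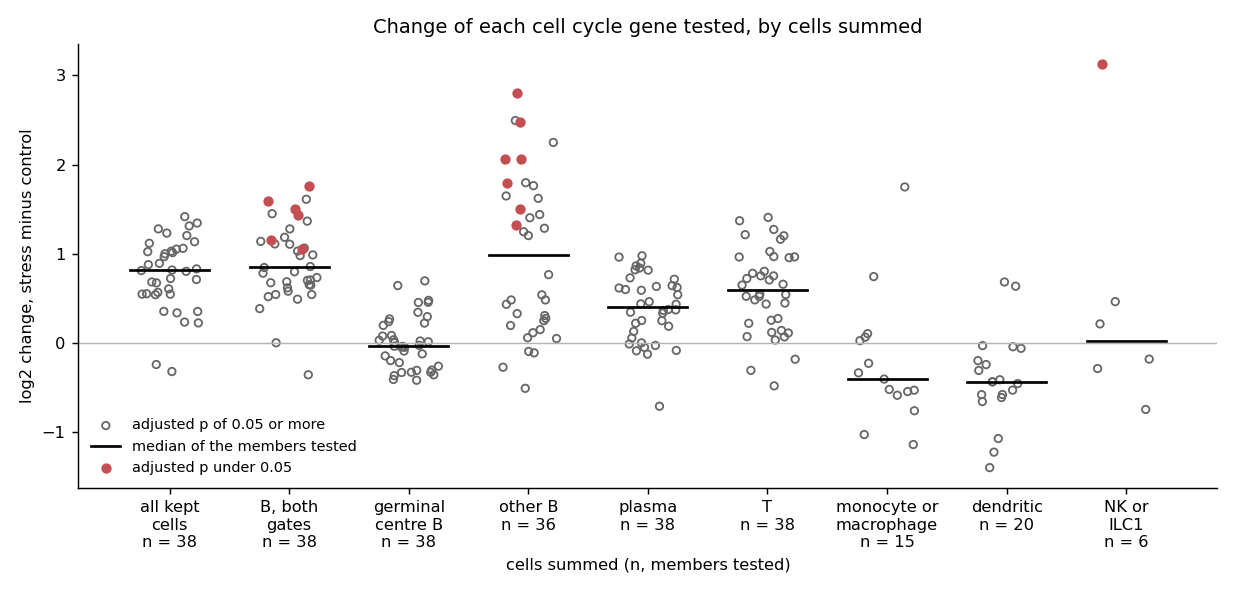
The log2 change (stress over control, edgeR) of each member tested in each set of cells; red points have an adjusted p under 0.05 and black lines are medians. The red points are the 6 members called in B cells, the 7 in other B cells and Top2a in NK cells or ILC1, and the medians are 0.85 in B cells and -0.03 in germinal centre B cells.

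In monocytes and macrophages Mki67 was higher in both stress libraries, while most other members tested were not. Mki67 was at 19.0 and 12.5 CPM in the controls and at 37.9 and 73.3 CPM in stress 1 and stress 2 (log2 change 1.75, SE 0.42, edgeR adjusted p = 0.172). Top2a was at 14.8 and 8.36 CPM against 9.68 and 10.0 CPM (-0.33, SE 0.36). Stmn1 was at 32.4 and 33.4 CPM in the controls and at 12.8 and 16.8 CPM under stress (-1.14, SE 0.25, edgeR adjusted p = 0.115). The groups did not overlap for Mki67 and Stmn1, in opposite directions, and overlapped for Top2a. Besides Mki67, only Aurka among the members tested was above both controls in both stress libraries. It was at 3.52 and 4.18 CPM against 6.19 and 6.46 CPM (0.75, SE 0.50, edgeR adjusted p = 0.615). Members filtered out for low counts were not compared in this way. Only 15 members passed the low-count filter. Of these 5 were positive, where 48.1% of all genes were, and Tyms, thymidylate synthase, was at -1.02 (SE 0.48). None was called by edgeR (0.442% of 8588 genes called, 0.279% higher), while DESeq2 called Mki67. An unadjusted p under 0.05 by edgeR was found for 3 members and for 1030 of all genes tested.

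The cycling share of these myeloid cells, 2.15% (7 of 325) and 1.59% (2 of 126) in the controls and 5.26% (32 of 608) and 14.5% (57 of 394) under stress, rested mostly on Mki67 in the stress libraries, which held 98 and 227 UMIs of Mki67 in these cells against 25 and 31 of Top2a. Of the called barcodes 2 of 7, 1 of 2, 1 of 32 and 8 of 57 held at least 5 UMIs of the other mitotic members. By those other members alone the shares were 1.54%, 2.38%, 0.987% and 3.30%, with stress 1 lowest. C1q-high macrophages, the mature cells, were called in 6 of 236, 0 of 40, 18 of 230 and 36 of 204 barcodes, and 1, 0, 0 and 2 of these had the other mitotic genes. C1q-low cells were called in 1.12%, 2.33%, 3.70% and 11.1%. The 0 of 40 in control 2 allows a share of up to 7.50%. The plot of called barcodes with other mitotic transcripts shows this by type.

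**Figure D3:**
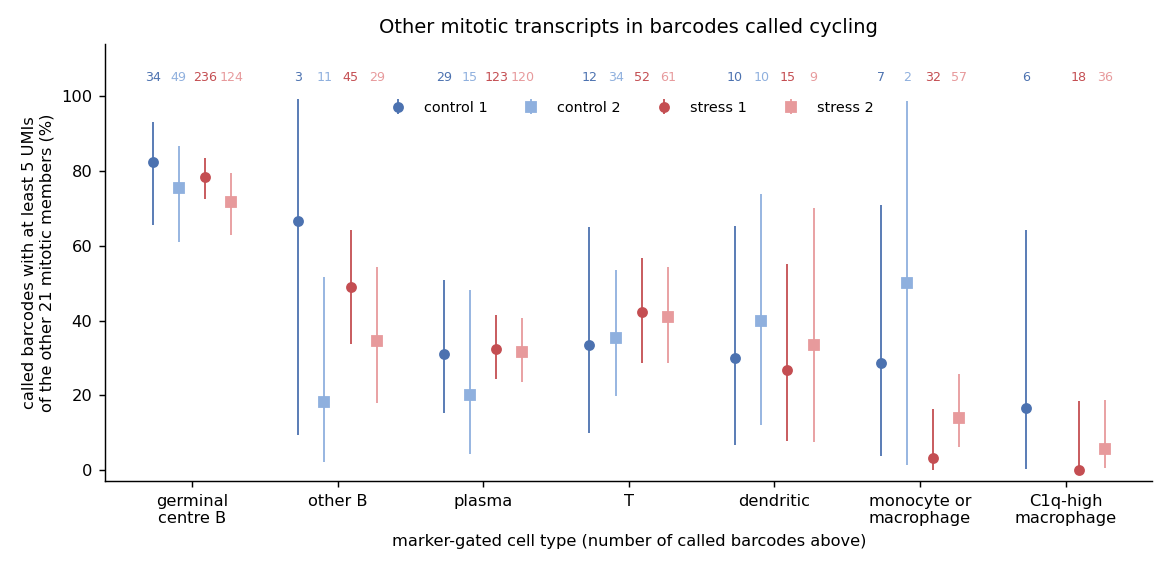
Percent of barcodes called cycling that also held at least 5 UMIs of the 21 other mitotic members, by cell type and library, with the number called above each. It lies between 71.8% and 82.4% in germinal centre B cells and at 3.12% (1 of 32) and 14.0% (8 of 57) in monocytes or macrophages of the stress libraries.

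By the main call dendritic cells cycled at about the same share in every library: 10.2%, 12.5%, 11.0% and 11.4% of 98, 80, 136 and 79 barcodes. By at least 5 UMIs of the 21 other mitotic members the share was lower in both stress libraries than in both controls. Of the 20 members that passed the low-count filter 2 were positive, with a median of -0.43. None was called by edgeR or DESeq2 (0.558% of 6809 genes called). An unadjusted p under 0.05 by edgeR was found for 2 members and for 701 of all genes tested. Stmn1 was at 84.6 and 150 CPM in the controls and at 54.3 and 34.6 CPM under stress (log2 change -1.39, SE 0.32, edgeR adjusted p = 0.0789). Kif23 was at 33.3 and 39.7 CPM against 12.3 and 18.4 CPM (-1.22, SE 0.37, edgeR adjusted p = 0.175). In both genes the stress libraries lay below both controls. Birc5 (-1.07, SE 1.35) rested on control 2, with 42.8 CPM there and 3.85, 18.5 and 3.24 CPM in control 1, stress 1 and stress 2.

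In NK cells or ILC1, a small group of 51, 88, 66 and 49 barcodes, 6 members were tested, 3 were positive (50.2% of all genes) and Top2a was called (12 of 3260 genes called, 0.368%). It had 0 and 6 UMIs in the controls and 10 and 36 in the stress libraries, or 0, 19.5, 63.4 and 158 CPM (log2 change 3.13, SE 0.63, edgeR adjusted p = 0.0213). Top2a passed the low-count filter through the stress libraries, where it was high, so its call is given as a description, and the size of the change depends on the library with no UMI. The call was lost with DESeq2 and without stress 2. Hmgb2 (0.47, SE 0.23) and Pcna (-0.74, SE 0.37), the members with the next largest changes, did not pass the threshold. The cycling call fell on 0, 0, 1 and 3 barcodes, where a count of 0 allows shares of up to 5.88% and 3.41% in the controls.

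The stress changes of B cells, T cells and plasma cells were compared directly by interaction tests with the library as a block. The B cell sums included germinal centre B cells, whose share of B cells was higher in both stress libraries. A change of that share and a change within cells cannot be told apart in these tests. No member was called in any of the 3 pairs. The change was smaller in T cells than in B cells for 30 of 38 members (2 of 11055 genes called, 0.0181%; lowest edgeR adjusted p among the members 0.482). It was smaller in plasma cells than in B cells for 29 of 38 (121 of 11025 genes called, 1.1%), with Cenpf at a difference of -1.97 (SE 0.46, edgeR adjusted p = 0.0898) and Ccnb1 at -1.54 (SE 0.44, edgeR adjusted p = 0.0918). Between plasma cells and T cells it was smaller in plasma cells for 14 of 38 (18 of 10520 genes called, 0.171%), with Mcm7 at 1.13 (SE 0.30, edgeR adjusted p = 0.232). Over all genes tested the difference was positive for 50.9% (T minus B), 49.4% (plasma minus B) and 54.5% (plasma minus T). At an unadjusted p under 0.05 by edgeR there were 4, 11 and 1 members in these pairs. The same held for 883 of 11055, 1173 of 11025 and 963 of 10520 genes.

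The difference of 5.14 percentage points in cycling barcodes was then divided among the cell types, as a description. Germinal centre B cells contributed 1.80 points (35.0%), of which as measured 1.85 came from their larger share of all cells and -0.05 from the cycling share within them. Plasma cells contributed 1.48 points (28.9%), 1.26 from their share of all cells and 0.23 from within. Monocytes and macrophages gave 0.73 points (14.1%), T cells 0.50 (9.78%) and other B cells 0.46 (8.97%), and in these 3 types the part from within (0.67, 0.70 and 0.47 points) exceeded that from their number. Dendritic cells gave -0.09 points. Over all types, 2.74 points came from the shares of the types and 2.40 from the cycling shares within them. Thinned to 1000 UMIs the order of these parts turned, with 0.80 and 0.88 points, and by the call on 21 other mitotic members they were 1.76 and 0.78.

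The parts of the types depended on depth, on the call and on single libraries. Thinned to 1000 UMIs, when the whole difference was 1.68 points, germinal centre B cells accounted for 63.9% (0.77 points from their share of cells and 0.31 from cycling within them), plasma cells for 14.4% and monocytes and macrophages for 0.016 points. With the call by 5 UMIs of the 21 other mitotic members, germinal centre B cells accounted for 55.9% of 2.54 points, plasma cells for 24.0% and monocytes and macrophages for 2.68%. In that call germinal centre B cells gave 1.65 points from their share of cells and -0.23 from cycling within them. Without stress 2 germinal centre B cells accounted for 52.9% of the difference and T cells for 2.39%. Without stress 1 plasma cells, at 31.3%, exceeded germinal centre B cells, at 26.8%.

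**Figure D4:**
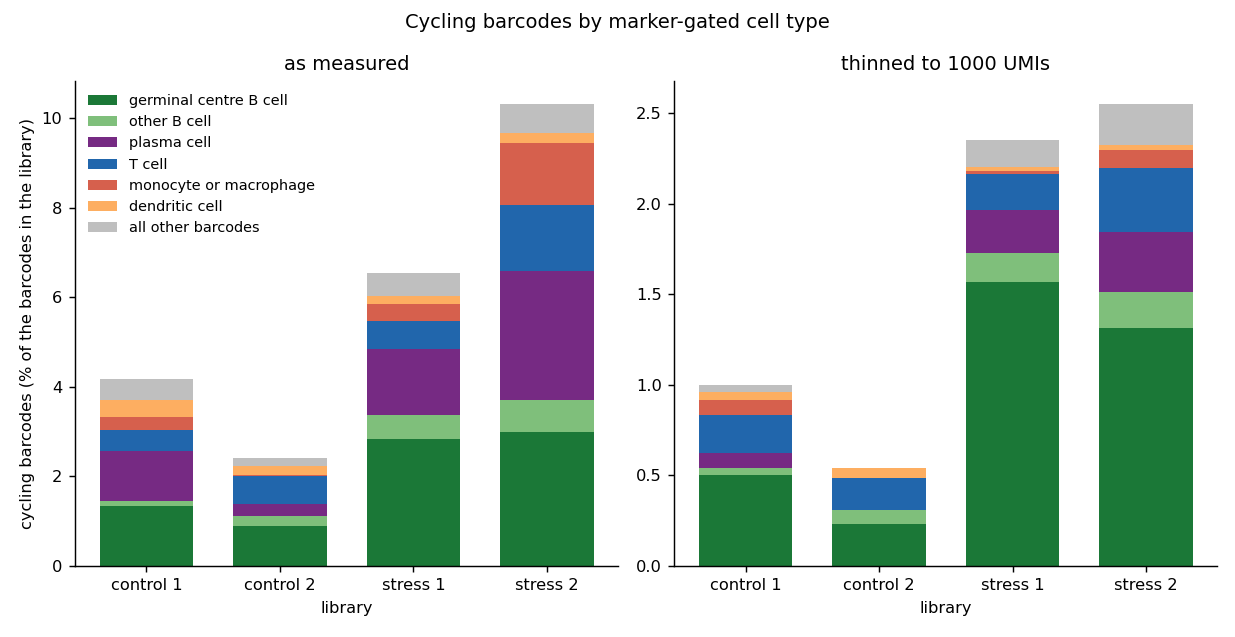
Cycling barcodes as percent of all kept barcodes in each library, divided by cell type, as measured and thinned to 1000 UMIs (each panel with its own axis). As measured the bars reach 4.18%, 2.41%, 6.54% and 10.3%, with germinal centre B cells at 1.33%, 0.90%, 2.83% and 3.0%.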

How the data were processed

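The deposited UMI counts per gene and barcode were made by the authors with Cell Ranger 5.0 on mm10, per the submitters' processing notes, while the matrices name software 3.1.0, per the file headers. The gene annotation used was not given in the sources used here. Deposited gene and barcode files hold names only (the unit called other in the records of this work), with no score or cell type. The members, role groups, marker lists and other cell cycle lists were chosen with earlier results of these data known.

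Barcodes under 500 UMIs or over 10% mitochondrial UMIs were dropped. A barcode took the type whose marker genes, relative to the typical level in that type, were highest, with at least 2 marker genes. Barcodes with 3 or more markers of another lineage at over 0.5 of the best score were called mixed. Germinal centre B cells were B cells with at least 2 of 9 genes. Some marker genes of the gates are not reported here. Doublets were scored with Scrublet (scanpy 1.11.5; expected rate 0.8% per 1000 barcodes; 53, 237, 556 and 137 in control 1, control 2, stress 1 and stress 2), kept in the main results and left out in an alternative. Endothelial and glial markers set no type, since barcodes that held them also held leukocyte transcripts.

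UMI counts were summed per library and type, for types with at least 30 barcodes in every library, and tested with edgeR 4.0.16 (TMM, filterByExpr, robust quasi-likelihood test, Benjamini-Hochberg over all genes tested, threshold 0.05) in R 4.3.3. CPM values are TMM-normalised, and sums of marker genes are plain CPM. Shares have exact 95% Clopper-Pearson intervals and a two-sided exact permutation test. A count of 0 was given the limit of 3 counts. Intervals and limits cover counting error only. Contributions of a type are its cycling barcodes as percent of all kept barcodes, split at the mean of the other factor. Alternatives were DESeq2 1.42.0, its size factors, no count filter, other UMI thresholds, thinning of each cell to 1000 or 2000 UMIs, 25% mitochondrial UMIs, doublets left out, and each library left out. Thinning to 2000 UMIs, other germinal centre gates and sums without germinal centre B cells were added after seeing the data. The edgeR script was tested on simulated data. Members with values in every library were Mki67, Top2a, the 2 with the highest CPM and the 1 with the largest change per role, and within a type the 3 with the largest change and all that were called. Of the other lists, the 2 genes with the smallest p per list were named.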

Additional observations from a re-analysis of the deposited data

Results flagged for a closer look

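For 10 of the 38 members both stress libraries lay above both controls in at least 1 of 7 separate cell types and below both in another. These are 26.3% of the members, and the same was so for 34.2% of the 9552 genes tested in at least 3 of the types. The differences between those types were not tested gene by gene in most cases. The interaction tests that were run, among B cells, T cells and plasma cells, called no member. The values below are log2 changes, stress over control.

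Among the replication genes, Mcm4 was higher in other B cells (0.31) and T cells (0.070) and lower in monocytes and macrophages (-0.52). Mcm6 was higher in other B cells (0.25), plasma cells (0.64) and T cells (0.65) and lower in monocytes and macrophages (-0.76). Mcm7 was higher in plasma cells (0.90) and lower in germinal centre B cells (-0.12), T cells (-0.18), monocytes and macrophages (-0.53) and dendritic cells (-0.31). Pclaf was higher in plasma cells (0.96) and T cells (0.71) and lower in germinal centre B cells (-0.33), and Rrm2, a subunit of ribonucleotide reductase, was higher in other B cells (0.48) and lower in germinal centre B cells (-0.33). Tyms was higher in other B cells (1.41), plasma cells (0.54) and T cells (0.53) and lower in germinal centre B cells (-0.36) and in monocytes and macrophages (-1.02).

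Among the mitotic genes, Aurkb was higher in other B cells (1.65) and T cells (0.97) and lower in germinal centre B cells (-0.35). Cenpa was higher in germinal centre B cells (0.24) and lower in other B cells (-0.51), T cells (-0.30) and NK cells or ILC1 (-0.18). Kif23 was higher in germinal centre B cells (0.033) and plasma cells (0.72) and lower in dendritic cells (-1.22). Mki67 was higher in germinal centre B cells (0.35), other B cells (2.25), T cells (1.03) and monocytes and macrophages (1.75) and lower in dendritic cells (-0.58). With 2 libraries a group, between 16.5% and 21.7% of all genes tested in a type separate in a given direction.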

How the results depend on the processing

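The number of genes called moved most. With all genes of at least 1 UMI tested it was 494 in B cells, 10 in germinal centre B cells, 239 in other B cells, 346 in plasma cells, 284 in T cells, 453 in monocytes and macrophages, 236 in dendritic cells and 27 in NK cells or ILC1, and in the interactions 218 (T minus B), 381 (plasma minus B) and 140 (plasma minus T). DESeq2 called 132 genes over all cells, 74 in B cells, 1 in germinal centre B cells, 26 in other B cells, 70 in plasma cells, 15 in T cells, 80 in monocytes and macrophages, 25 in dendritic cells and 4 in NK cells or ILC1. Without doublets 1 gene was called in germinal centre B cells and 78 in plasma cells, with 25% mitochondrial UMIs 2 and 51 in germinal centre and other B cells, and with the germinal centre gate at 1 gene 58 in other B cells. Leaving out each library in turn gave 0 to 3017 genes over all cells, 83 to 1316 in B cells, 8 to 34 in germinal centre B cells, 5 to 302 in other B cells, 20 to 173 in plasma cells, 0 to 1737 in T cells, 20 to 917 in monocytes and macrophages, 93 to 326 in dendritic cells and 11 to 65 in NK cells or ILC1, and in the interactions 0 to 310, 34 to 109 and 27 to 568; the arm left with 1 library is then assumed to vary like the other.

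The replicate numbers pair no samples in the labels, and the replicate differences of the groups correlated at -0.036 over 13241 genes. With the replicate block 0 genes were called over all cells and in germinal centre B cells, 4 in other B cells, 13 in plasma cells, 61 in monocytes and macrophages, 140 in dendritic cells and 7 in NK cells or ILC1. With this block 9 members were called in B cells in place of 6 and 0 in other B cells in place of 7, and the calls of Cdkn1a, Tubb4b, Tuba1c and Ccnd2 in other B cells were lost.

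The cycling share over all cells stayed higher under stress in all 12 alternatives (1.68 to 8.39 points). The sign turned in germinal centre B cells with at least 3 UMIs (0.698), thinned to 1000 (8.28) or 2000 UMIs (3.06) and without control 2 (-5.95 to 1.5 as libraries were left out), and in dendritic cells with at least 1 (1.09) or 3 UMIs (0.160), 25% mitochondrial UMIs (0.467), without control 2 and without stress 1 (-1.29 to 1.01 as libraries were left out). Of 916 values of single members, 13 turned sign. Without germinal centre B cells these were Mcm4 (-0.014), Mcm7 (-0.083) and Stmn1 (-0.13) over all cells, and with the gate at 1 gene Top2a in germinal centre B cells (0.23). As libraries were left out, Pcna ranged from -0.46 to 0.070 and Cenpa from -0.69 to 0.23 over all cells, Top2a from -0.16 to 0.10 in germinal centre B cells, Mki67 from -0.12 to 1.46 and Top2a from -0.075 to 2.21 in plasma cells, Top2a from -0.57 to 0.25 in monocytes and macrophages, and Birc5 from -2.73 to 1.40 and Top2a from -1.20 to 0.26 in dendritic cells. Leaving out control 2 turned all of these but Top2a in monocytes and macrophages, which turned without control 1. The cause was not tested. Low counts limit the size of changes in other B cells, where control 1 held 3 UMIs of Cdk1 and of Kif11.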

Other observations

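Cell cycle genes outside the set were called in both directions in B cells outside the germinal centre gate, and most of them moved opposite to the mitotic members. Cdkn1a, the p21 inhibitor, fell there by 0.98 (SE 0.23, edgeR adjusted p = 0.0379), from 23.9 and 25 CPM in control 1 and control 2 to 15.6 and 9.10 CPM in stress 1 and stress 2. The tubulin genes Tubb4b and Tuba1c, which cells also use outside mitosis, fell by 0.87 (edgeR adjusted p = 0.00548) and 0.73 (edgeR adjusted p = 0.0458). Ccnd2, a D-type cyclin that acts before S phase, rose by 0.73 (SE 0.18, edgeR adjusted p = 0.0463), from 95.6 and 65.2 CPM to 141 and 118 CPM. Of these 4 genes only Tubb4b was still called with DESeq2, and likewise with the germinal centre gate at 1 or at 3 genes. With 25% mitochondrial UMIs the calls of Ccnd2 and Cdkn1a were lost, and with doublets left out that of Ccnd2. All 4 calls were lost without control 2, and those of Cdkn1a, Tubb4b and Tuba1c also without stress 2. In T cells Uhrf1 was at 4.55 and 5.27 CPM in the controls and at 12.3 and 14.5 CPM under stress (log2 change 1.40, SE 0.31, edgeR adjusted p = 0.545), with both stress libraries above both controls.

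Barcodes that carried markers of more than 1 lineage were called cycling in 1 of 24, 7 of 118, 19 of 157 and 8 of 57 in control 1, control 2, stress 1 and stress 2. The few epithelial-like barcodes were called in 5 of 32 in control 1 and 2 of 5 and 1 of 6 in stress 1 and stress 2.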
